A study of Mus musculus with 5 samples.

Results

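A set of 10 genes of macrophage lipid handling, chosen by symbol from the 32285 genes of the count matrices, was followed through the cells of the mouse kidney during aristolochic acid nephropathy: *Trem2*, *Gpnmb*, *Fabp5*, *Lpl*, *Apoe*, *Apoc1*, *Apoc2*, *Apoc4*, *Cd36* and *Lgals3*. All groups were male C57BL/6 wild-type mice, 8 to 10 weeks old at the start. Aristolochic acid I (AAI), a plant toxin that injures the proximal tubule, was given by intraperitoneal injection, 3 mg/kg at intervals of 3 days, until week 2. Whole kidneys were dissociated and profiled by droplet sequencing of RNA 3′ ends at week 2 (AKI, 2 libraries) and at week 4, 2 weeks after the last dose (CKD, 2 libraries), beside 1 library from vehicle-treated mice at week 0 (control). The labels do not say how many mice went into a library or whether replicate libraries came from different mice, so the p-values below measure the spread between libraries only, and the control has no replicate.

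Macrophages that engulf cell debris and lipoproteins take on a lipid-associated program in fat, arteries, brain and injured organs. TREM2, a surface receptor for lipids and apolipoproteins, signals through the adaptor TYROBP and is required for much of that program, while CD36 takes up oxidized lipoproteins and fatty acids. The cells secrete apolipoprotein E and the lipase LPL, carry fatty acids with FABP5, and raise GPNMB and galectin-3 as their lysosomes fill; in the kidney, resident macrophages and monocyte-derived cells can both adopt parts of this state.

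The genes lie on 7 mouse chromosomes (GRCm39 coordinates from the GENCODE annotation). *Apoe* (chr7:19430034-19434947), *Apoc1* (chr7:19422540-19427328), *Apoc4* (chr7:19412005-19415405) and *Apoc2* (chr7:19405504-19411877) are neighbours on the minus strand, and *Apoc1*, *Apoc4* and *Apoc2* start 2705, 14628 and 18156 bases beyond the end of *Apoe*. *Trem2* (chr17:48653429-48661175), *Gpnmb* (chr6:49013426-49047863), *Fabp5* (chr3:10077602-10081674), *Lpl* (chr8:69284603-69360100) and *Lgals3* (chr14:47605208-47623624) are on the plus strand, and *Cd36* (chr5:17986432-18094067) is on the minus strand. The sequences below come from before the transcription starts that RefSeq gives (promoter table of build GRCm38.p6, located by exact match on GRCm39) and are limited to bases that no annotated exon covers. They are shown for the genes with such a stretch whose levels were lower in CKD than in AKI macrophages (*Trem2*, *Apoc2*, *Apoc4* and *Cd36*) and for *Lgals3*, which was higher. Capitals mark AGGTCA on either strand (or TGACCT, the same letters read on the other strand), bound by many of the lipid-sensing nuclear receptors and chosen after the sequences had been read. The *Trem2* stretch is chr17:48653179-48653428 on the plus strand, that of *Apoc2* is chr7:19411878-19412004 on the minus strand and fills the whole gap between *Apoc4* and *Apoc2*, that of *Apoc4* is chr7:19415406-19415635 on the minus strand, that of *Cd36* is chr5:18041076-18041144 on the minus strand, before a start inside the annotated gene, and that of *Lgals3* is chr14:47611155-47611269 on the plus strand, likewise before a start inside the gene.
Trem2: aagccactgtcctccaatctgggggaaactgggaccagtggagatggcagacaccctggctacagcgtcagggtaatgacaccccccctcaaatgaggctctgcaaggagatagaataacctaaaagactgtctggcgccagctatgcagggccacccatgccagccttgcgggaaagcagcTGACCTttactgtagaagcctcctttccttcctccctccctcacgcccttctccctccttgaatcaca
Apoc2: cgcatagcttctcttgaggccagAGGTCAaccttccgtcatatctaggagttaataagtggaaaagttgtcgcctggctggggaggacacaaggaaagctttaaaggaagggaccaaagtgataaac
Apoc4: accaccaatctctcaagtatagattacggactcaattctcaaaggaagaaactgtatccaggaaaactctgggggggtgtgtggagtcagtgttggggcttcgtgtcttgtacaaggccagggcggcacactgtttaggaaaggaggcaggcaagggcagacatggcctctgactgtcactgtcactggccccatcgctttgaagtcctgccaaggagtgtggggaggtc
Cd36: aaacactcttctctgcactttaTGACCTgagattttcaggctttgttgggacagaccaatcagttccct
Lgals3: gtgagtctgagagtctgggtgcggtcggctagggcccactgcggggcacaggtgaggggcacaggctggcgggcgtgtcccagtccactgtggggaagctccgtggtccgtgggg
Over the whole 250 bases before each RefSeq start, these letters occurred for 4 of the 7 genes with an entry (*Trem2*, *Apoc2*, *Apoc4* and *Cd36*), against 14.0% of all 32851 such windows. The match lay 68 bases before the start of *Trem2*, 115 before that of *Apoc2* and 228 before that of *Cd36*. TGANTCA, the AP-1 letters, occurred for *Trem2* (6.75% of windows), CACGTG, the E-box of the MiT/TFE factors, for 0 of 7 (6.02%), CCAAT for 4 of 7 (33.8%) and TATAAA for *Apoe* (12.4%). The match of *Apoc4* ran into an exon and so is not in the stretch shown. A match describes the letters and not a bound site. *Fabp5*, *Lpl* and *Apoc1* had no entry.

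The 5 libraries held 90028670 to 121316769 UMIs (unique molecular identifiers, each counting 1 captured RNA molecule). After filters and removal of likely doublets, 53718 cells remained, 8496 to 16330 per library with a median of 2829 to 5534 UMIs. Of the control's barcodes 38.7% exceeded the mitochondrial limit, against 11.1 to 12.7% in AKI and CKD, and 83 control cells carried the barcode of a CKD 2 cell more than 20 times as deep. Macrophage-like cells numbered 878 (control), 829 and 1222 (AKI 1 and AKI 2) and 1740 and 701 (CKD 1 and CKD 2), with median depths of 3080.5, 9695, 9535, 3376 and 16961 UMIs. Their defining complement gene *C1qa* stood at 13.1 to 48.0 UMIs per 10000 across libraries, against 0.0703 to 0.461 in T lymphocyte-like cells, and *Csf1r* at 2.56 to 5.52 against 0.0113 to 0.0811. The class name was not borne out in every part of it. Osteoclast-like cells, led by *Ctsk* and *Mmp9*, held *C1qa* at 0.110 and 0.0834 UMIs per 10000 in the CKD libraries and made up 13.9% and 18.5% of macrophage-like cells there, against 0.483% and 0.818% in AKI. Cycling-like cells held *C1qa* at 0.190 and 0.826 in CKD and made up 9.60% and 15.8%. A subcluster led by *Igfbp7*, *Aqp1* and *Sparc* and one led by *Gm26917* and *Egf*, both with leading genes of cells other than myeloid cells, had *C1qa* at 0.312 to 2.77 in CKD. The first was 18.3% of macrophage-like cells in CKD 1 and 1.43% in CKD 2, against 10.4% and 2.37% in AKI 1 and AKI 2. The second was 17.1% in the control, 2.53% and 7.94% in AKI and 8.10% and 8.42% in CKD. Leaving both out ended none of the calls of the 10 genes given below for macrophage-like cells.

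Levels below are UMIs per 10000 UMIs of the cells in question, and CKD was compared with AKI by edgeR's quasi-likelihood test on UMIs summed per library (2 against 2), with Benjamini-Hochberg adjustment over 12559 genes. In macrophage-like cells, 8 of the 10 genes differed at an adjusted p under 0.05. *Apoe*, *Apoc2*, *Apoc1*, *Apoc4*, *Cd36* and *Trem2* were lower and *Lpl* and *Lgals3* higher in CKD, while *Gpnmb* and *Fabp5* did not pass. The comparison moved much of the transcriptome: 34.2% of all genes tested were called, 16.5% higher and 17.7% lower. The median log2 fold change was -1.41 over the 10 genes and 0.01 over all genes tested.

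**Figure D1:**
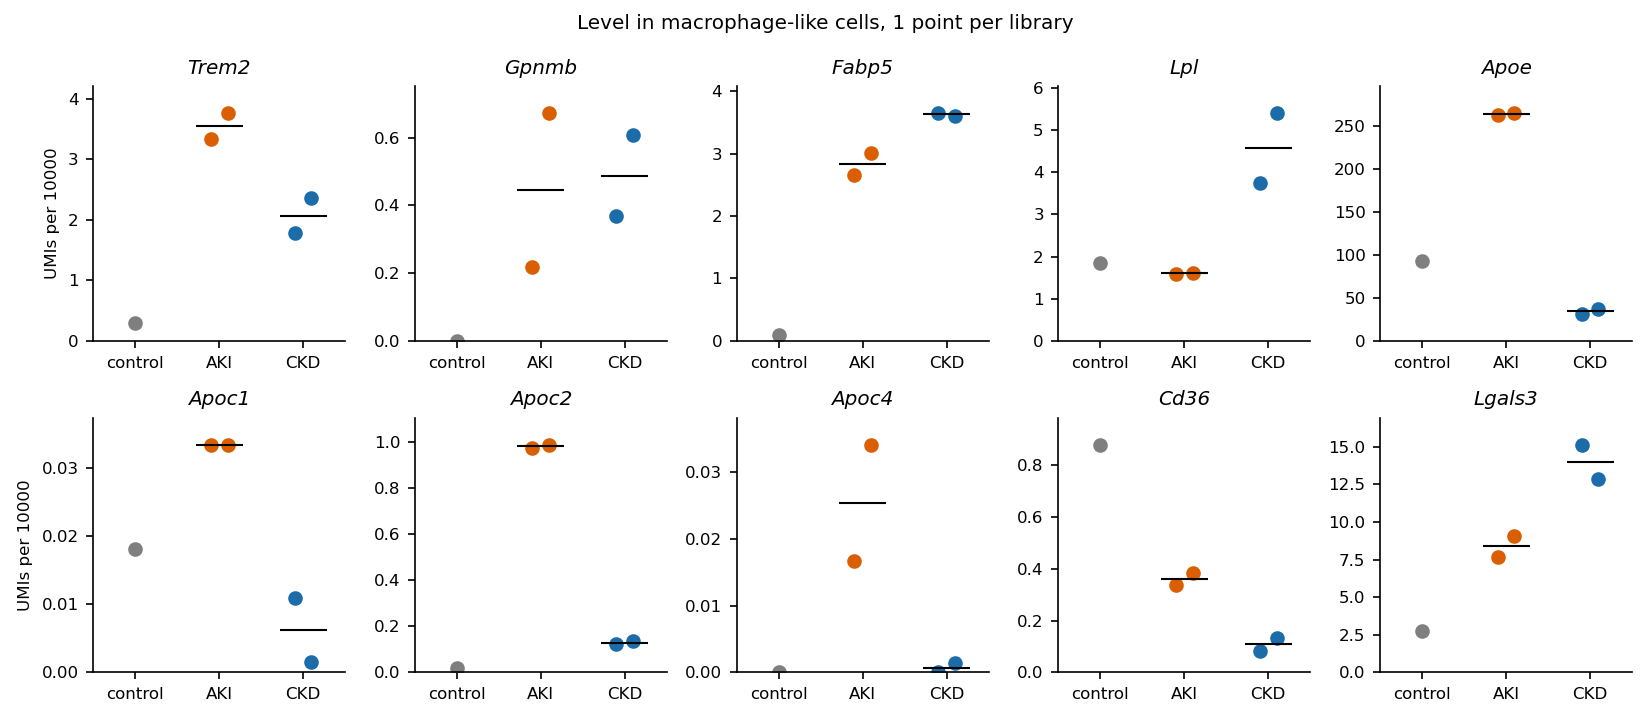
Level of each of the 10 genes in macrophage-like cells (y axis, UMIs per 10000, separate scale per gene, each starting at 0). Each point is 1 library and lines mark the means of the 2 AKI and 2 CKD libraries. The AKI and CKD points of *Gpnmb* overlap.

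*Apoe* encodes the main apolipoprotein that macrophages secrete and load with cholesterol. It stood at 93.2 UMIs per 10000 in the control, 264 and 265 in AKI, and 31.9 and 36.8 in CKD. The AKI libraries lay above the control and the CKD libraries below it. *Apoe* was 8.61-fold lower in CKD than in AKI (log2 fold change -3.11, SE 0.123, edgeR adjusted p = 0.000154), and the AKI mean was 2.84 times the single control value.

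*Apoc2*, the cofactor that switches on lipoprotein lipase, stood at 0.0181 UMIs per 10000 in the control (5 UMIs in all), 0.977 and 0.989 in AKI, and 0.123 and 0.135 in CKD. All 4 injured libraries lay above the control, and the AKI libraries were highest. *Apoc2* was 8.52-fold lower in CKD than in AKI (log2 fold change -3.09, SE 0.127, edgeR adjusted p = 0.000165). Its neighbours on chromosome 7 were sparse in macrophages. *Apoc1*, an apolipoprotein that restrains lipoprotein uptake, gave 72 UMIs over both AKI and 16 over both CKD libraries, a ratio of 5.51 per UMI captured (95% counting interval 3.17 to 10.1, counting error only). *Apoc4*, a minor apolipoprotein of the same cluster, gave 59 and 2 UMIs (ratio 36.1, interval 9.56 to 305) and was at 0 in the control. Both calls rested on few UMIs and were lost without AKI 1 and without AKI 2. The call of *Apoc1* was also lost with likely doublets kept and at a clustering resolution of 1. Over all alternatives the log2 fold change of *Apoc1* ranged from -4.52 to -0.33.

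*Trem2* stood at 0.301 UMIs per 10000 in the control (83 UMIs), 3.33 and 3.76 in AKI, and 1.78 and 2.35 in CKD. AKI was highest, at a mean 11.8 times the control value, and CKD lay between them. The fall from AKI to CKD was 1.91-fold (log2 fold change -0.93, SE 0.167, edgeR adjusted p = 0.00723). *Cd36*, the scavenger receptor, ran differently, at 0.880 UMIs per 10000 in the control, 0.338 and 0.383 in AKI, and 0.0838 and 0.133 in CKD. Here the control was highest and CKD lowest, 3.70-fold below AKI (log2 fold change -1.89, SE 0.235, edgeR adjusted p = 0.00189).

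*Lpl*, which hydrolyses the triglyceride of lipoproteins, stood at 1.84 UMIs per 10000 in the control, 1.59 and 1.62 in AKI, and 3.74 and 5.40 in CKD. Control and AKI were close and both CKD libraries lay above them, so that the lipase was 2.55-fold higher in CKD than in AKI (log2 fold change 1.35, SE 0.198, edgeR adjusted p = 0.00341) while its cofactor *Apoc2* was lower. *Fabp5*, a cytosolic fatty acid carrier, stood at 0.101 UMIs per 10000 in the control (28 UMIs), 2.66 and 3.01 in AKI, and 3.64 and 3.61 in CKD. All injured libraries exceeded the control, by 27.98 times for the AKI mean, but AKI and CKD were not told apart (log2 fold change 0.19, SE 0.103, edgeR adjusted p = 0.206).

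*Lgals3*, which encodes galectin-3, a lectin that binds damaged lysosomes and is released by macrophages in fibrosis, stood at 2.78 UMIs per 10000 in the control, 7.68 and 9.08 in AKI, and 15.1 and 12.9 in CKD. The order was control, AKI, CKD, and CKD was 1.49-fold above AKI (log2 fold change 0.58, SE 0.116, edgeR adjusted p = 0.0111). That call was lost without AKI 1 (adjusted p = 0.149) and without AKI 2 (0.0643, edgeR). *Gpnmb*, a lysosomal and surface glycoprotein, had 0 UMIs in the control, which allows a level of up to 0.0109 per 10000. It stood at 0.217 and 0.672 in AKI and at 0.370 and 0.607 in CKD, so the groups overlapped (log2 fold change -0.03, SE 0.485, edgeR adjusted p = 0.974). The AKI mean of *Gpnmb* was at least 40.9 times the control limit. Without CKD 2, *Gpnmb* was called lower in CKD (log2 fold change -0.50, edgeR adjusted p = 0.00430), and without AKI 2 its direction turned to 0.93.

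Shares of cells gave the same order for the abundant genes. In macrophage-like cells thinned to 1500 UMIs each, with 226 shallower cells left out in the control and 45 to 100 in the other libraries, *Apoe* was detected in 88.8% of control cells, 93.9% and 95.2% of AKI cells, and 67.6% and 59.9% of CKD cells. In T lymphocyte-like cells, where *Apoe* UMIs were taken as the free RNA background, those shares were 6.72%, 31.2%, 44.3%, 12.8% and 4.51%, at levels of 0.431, 2.33, 3.49, 0.793 and 0.264 UMIs per 10000. *Apoe* in T lymphocyte-like cells thus ran in the same direction at levels far below those of macrophages. The difference of the change between the classes did not pass (interaction -0.45, edgeR adjusted p = 0.592). The interaction turned on single CKD libraries, being 0.34 without CKD 1 and -1.27 without CKD 2. As 61.7 to 92.0% of *Apoe* UMIs in AKI and CKD lay in macrophage-like cells, it may set macrophages against their own free RNA. A like change in the classes is not read from it. *Trem2* was detected in 3.99% of thinned control macrophages, 28.5% and 28.3% of AKI and 17.5% and 25.8% of CKD macrophages, and in at most 0.774% of T lymphocyte-like cells. For *Lgals3* the shares were 27.9% in the control, 39.7% and 40.1% in AKI and 72.9% and 64.6% in CKD. *Lpl* was detected in 19.5% of control macrophages, 12.5% and 11.8% of AKI and 23.5% and 39.2% of CKD macrophages. Unthinned, these shares were higher throughout, for example 66.8% and 63.0% for *Trem2* in AKI and 39.4% and 71.6% in CKD, where the 2 CKD libraries differed most in depth.

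Some other measures moved with the comparison. Transcripts of the dissociation and stress response summed to 334 UMIs per 10000 in control, 237 and 216 in AKI, and 109 and 101 in CKD macrophages. Proximal tubule transcripts (all 11 of a list detected in each library) summed to 20.2, 6.24, 7.68, 15.7 and 2.13, and T lymphocyte transcripts to 0.134, 0.730, 0.604, 2.64 and 0.673. Both of these sums overlapped between AKI and CKD. Macrophage markers also fell, with *C1qa* at 48.0 and 47.7 UMIs per 10000 in AKI and 13.1 and 13.7 in CKD. The part of any of these in the 10 genes' changes was not tested. Another set took every cell of any class with a UMI each of *C1qa* and *C1qb*, with free RNA of both genes not removed. Of its 5774 cells, 3699 were among the 5370 macrophage-like cells, so it mixed macrophages with cells classed otherwise. In that set 0 of 13485 genes tested were called (edgeR, 2694 at an unadjusted p under 0.05). The log2 fold changes there were -1.85 for *Apoe*, -2.11 for *Apoc2*, -0.25 for *Cd36*, -0.03 for *Trem2*, 1.43 for *Lpl* and 1.00 for *Lgals3*.

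Because the mix of macrophages shifted between AKI and CKD, the genes were followed within subgroups found without using any of the 10 as clustering genes, although *Trem2* and *Gpnmb* were among the 10 leading genes of 1 of them (led by *Fcrls*) and *Lpl* among those of the cycling-like subgroup. Resident-like cells are rich in complement C1q but not alone in it. Over libraries, *C1qa* levels spanned 45.6 to 65.9 in resident-like cells and overlapped with 39.0 to 53.1 in *Ccl7*-led cells. They were lower in *Il1a*-led (20.1 to 43.7) and *Fcrls*-led cells (20.7 to 43.4). The resident marker list scored highest in these subgroups too, but their leading genes included those of another set. They are therefore named here by leading genes: the chemokine genes *Ccl7* and *Ccl12*, *Il1a* with the elastase gene *Mmp12*, and *Fcrls* with fibronectin (*Fn1*). The resident-like subgroup held 230 and 327 AKI and 315 and 104 CKD cells, the *Ccl7*-led 211 and 232 against 150 and 86, the *Il1a*-led 144 and 234 against 95 and 80, and the *Fcrls*-led 53 and 114 against 109 and 54. Resident-like cells joined a deeper subcluster and a shallower one led by *Cxcl13* and *Cxcl9*, which held 39 and 62 of them in AKI and 214 and 22 in CKD, so that CKD 1 drew mostly on the shallower one. In each of the 4, 8 of the 10 genes had enough counts to test. *Apoc1* and *Apoc4* did not. The control had another mix. *Il1a*-led cells were 1.59% of its macrophage-like cells, against 17.4% and 19.1% in AKI, and *Fcrls*-led cells 1.48%, against 6.39% and 9.33%. The part of that mix in the levels over the control was not tested.

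*Apoe* fell in all 4 subgroups. In resident-like cells it stood at 140 UMIs per 10000 in the control, 325 and 358 in AKI, and 82.8 and 149 in CKD (log2 fold change -1.77, SE 0.227, edgeR adjusted p = 0.00420). *Ccl7*-led cells held 87.5 UMIs of *Apoe* per 10000 in the control, 248 and 239 in AKI, and 82.1 and 96.9 in CKD (-1.64, SE 0.108, 0.000226). In both subgroups the CKD libraries lay well below AKI and near the control. In *Il1a*-led cells *Apoe* went from 230 and 247 in AKI to 20.2 and 43.4 in CKD (-2.96, SE 0.257, 9.27e-05), and in *Fcrls*-led cells from 329 and 306 to 32.4 and 36.7 (-3.21, SE 0.111, 3.81e-07). *Apoc2* also fell in all 4, with log2 fold changes of -1.33 in resident-like, -1.79 in *Ccl7*-led, -1.63 in *Il1a*-led and -3.76 in *Fcrls*-led cells (edgeR adjusted p 0.0217, 0.0405, 0.000280 and 0.000192). Its AKI level was highest in the *Fcrls*-led cells, at 3.09 and 2.11 UMIs per 10000, against 0.105 and 0.277 there in CKD.

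*Lgals3* rose in all 4 subgroups, from 4.15 and 3.71 to 12.3 and 9.46 UMIs per 10000 in resident-like cells (log2 fold change 1.27, SE 0.184, edgeR adjusted p = 0.00711) and from 3.76 and 3.77 to 13.5 and 10.9 in *Ccl7*-led cells (1.499, SE 0.133, 0.000861). *Il1a*-led cells were highest, at 14.9 and 14.6 in AKI and 35.001 and 27.4 in CKD (1.02, 0.000474), and *Fcrls*-led cells went from 9.71 and 12.0 to 16.0 and 17.3 (0.62, 0.0134). The rise of *Lgals3* was thus at least 0.62 in each subgroup, beside 0.58 over all macrophage-like cells.

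*Trem2* did not move one way. It fell in *Il1a*-led cells, from 4.12 and 4.43 UMIs per 10000 to 2.29 and 2.28 (log2 fold change -0.97, SE 0.127, edgeR adjusted p = 0.00101), and in *Fcrls*-led cells, from 7.63 and 7.85 to 3.26 and 5.11 (-0.89, SE 0.204, 0.0158). Resident-like cells held 0.482 UMIs of *Trem2* per 10000 in the control, 2.36 and 2.01 in AKI and 2.70 and 4.05 in CKD (0.42, adjusted p = 0.276, edgeR). *Ccl7*-led cells held 0.221, then 2.12 and 1.83, then 2.58 and 2.82 (0.26, 0.393). In both of these subgroups the CKD libraries lay above the AKI libraries without passing the test, and the control lay below all of them.

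*Lpl* rose in *Fcrls*-led cells, from 1.75 and 1.61 UMIs per 10000 in AKI to 5.81 and 6.16 in CKD (log2 fold change 1.83, SE 0.159, edgeR adjusted p = 0.000140), and in *Il1a*-led cells, from 2.39 and 2.38 to 3.58 and 4.32 (0.67, SE 0.136, 0.0136). It was also higher in CKD in resident-like (1.08, 0.117) and *Ccl7*-led cells (0.69, 0.178), below the threshold. Among the 4 subgroups *Gpnmb* was called in *Il1a*-led cells, from 0.307 and 0.406 to 0.698 and 2.04 (1.89, SE 0.367, edgeR adjusted p = 0.0105), and stood at 0.704 and 2.19 in AKI and 0.229 and 0.753 in CKD in *Fcrls*-led cells (-1.60, 0.0661). *Fabp5* rose in *Il1a*-led cells (0.66, edgeR adjusted p = 0.0248) and *Cd36* fell in *Fcrls*-led cells, from 0.251 and 0.627 to 0.105 and 0.0991 (-2.19, 0.00998). In the other subgroups *Cd36* had log2 fold changes of -0.20 in resident-like, -0.55 in *Ccl7*-led and 0.09 in *Il1a*-led cells, and *Fabp5* of 0.34 in resident-like, -1.10 in *Ccl7*-led and 0.35 in *Fcrls*-led cells, none past the threshold.

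Counted over subgroups, 3 of the 8 tested genes were called in resident-like cells (background 6.18% of all genes tested), 3 of 8 in *Ccl7*-led cells (3.52%), 7 of 8 in *Il1a*-led cells (6.96%) and 6 of 8 in *Fcrls*-led cells (16.5%). The interferon-like subgroup added *Apoe* (log2 fold change -2.80, edgeR adjusted p = 0.0346, 1 of 5 tested, background 0.193%), with 84.3 and 103 UMIs per 10000 in AKI and 14.5 and 10.8 in CKD. Leaving out an AKI library ended many of these calls, and nearly all calls over all genes in some subgroups. In *Ccl7*-led cells 0 genes were then called (edgeR, 744 without AKI 1 and 1003 without AKI 2 at an unadjusted p under 0.05), in interferon-like cells also 0 (138 and 75), and in resident-like cells 24 and 12. In resident-like and *Ccl7*-led cells those of *Apoe*, *Apoc2* and *Lgals3* were lost without AKI 1 and without AKI 2 (edgeR adjusted p 0.0784 to 0.491), with log2 fold changes still between -1.61 and -1.86 for *Apoe*. In interferon-like cells *Apoe* was lost without either (0.865 and 0.988). *Lgals3* in *Fcrls*-led cells was lost without AKI 1 (0.136), and *Cd36* there (0.0880) and *Fabp5* (0.181) and *Lpl* (0.0564) in *Il1a*-led cells without AKI 2.

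**Figure D2:**
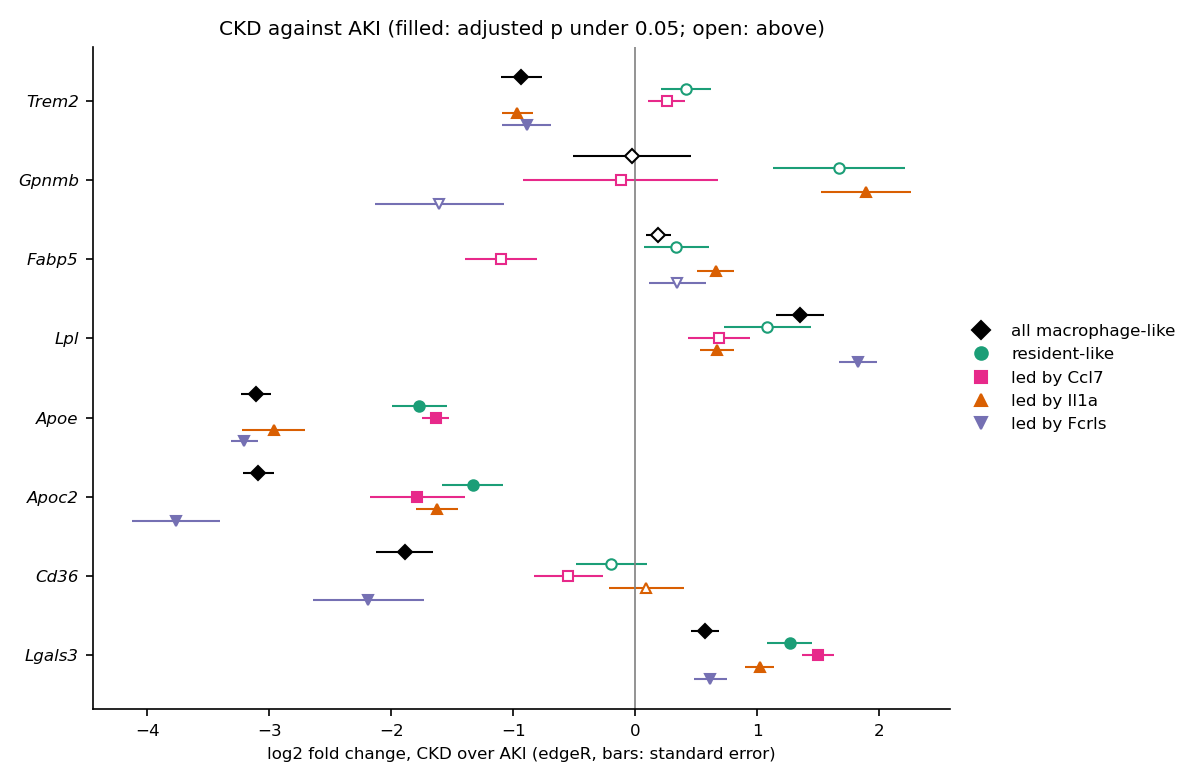
Log2 fold change of CKD over AKI (x axis) for 8 of the genes in all macrophage-like cells and in 4 subgroups; bars are edgeR standard errors, and filled symbols have an adjusted p under 0.05. *Apoc1* and *Apoc4* are left out, being too sparse in subgroups. *Apoe* and *Apoc2* lie left of 0 and *Lgals3* right of 0 in every group, while *Trem2* lies on both sides.

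With the 4 subgroups given the same weight in every library, an alternative chosen after seeing the data, the log2 difference of *Apoe* was -2.07, of *Apoc2* -2.30, of *Apoc4* -3.99, of *Trem2* -0.37, of *Cd36* -0.41, of *Lpl* 1.22 and of *Lgals3* 1.09. These are log2 ratios of mean levels, without the normalization that edgeR used for the values over all macrophage-like cells. All but *Lgals3* of these 7 genes were closer to 0 than those edgeR values. Of the rest, *Apoc1* (-2.69 against -2.60) and *Fabp5* (0.38 against 0.19) were further from 0, and *Gpnmb* changed sign (0.13 against -0.03). The measures differ, so the sizes of the shifts are not read from them. Without all unnamed subclusters the call of *Trem2* was lost (log2 fold change -0.39, edgeR adjusted p = 0.0763) and that of *Fabp5* gained (0.42, 0.0182).

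Osteoclast-like and cycling-like macrophages had too few AKI cells for a test (3 to 13 per library) and are described for CKD alone. Osteoclast-like cells, which express the bone-resorption genes *Ctsk*, *Mmp9* and *Acp5*, numbered 242 and 130 in CKD and held *Apoe* at 32.7 and 22.4 UMIs per 10000, *Lpl* at 3.94 and 5.53, *Trem2* at 1.54 and 1.95 and *Lgals3* at 16.2 and 12.9. *Fabp5* stood at 0.897 and 0.926 in them. Cycling-like cells, 167 and 111 in number, held *Fabp5* at 7.34 and 7.84 and *Lpl*, one of their leading genes, at 6.02 and 7.92, but *Apoe* at 2.67 and 1.68. The pair thus differed from each other in *Fabp5* and *Apoe* in both CKD libraries, a difference between clusters of the same cells that carries no test. Resident-like cells of the same libraries held *Apoe* at 82.8 and 149.

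**Figure D3:**
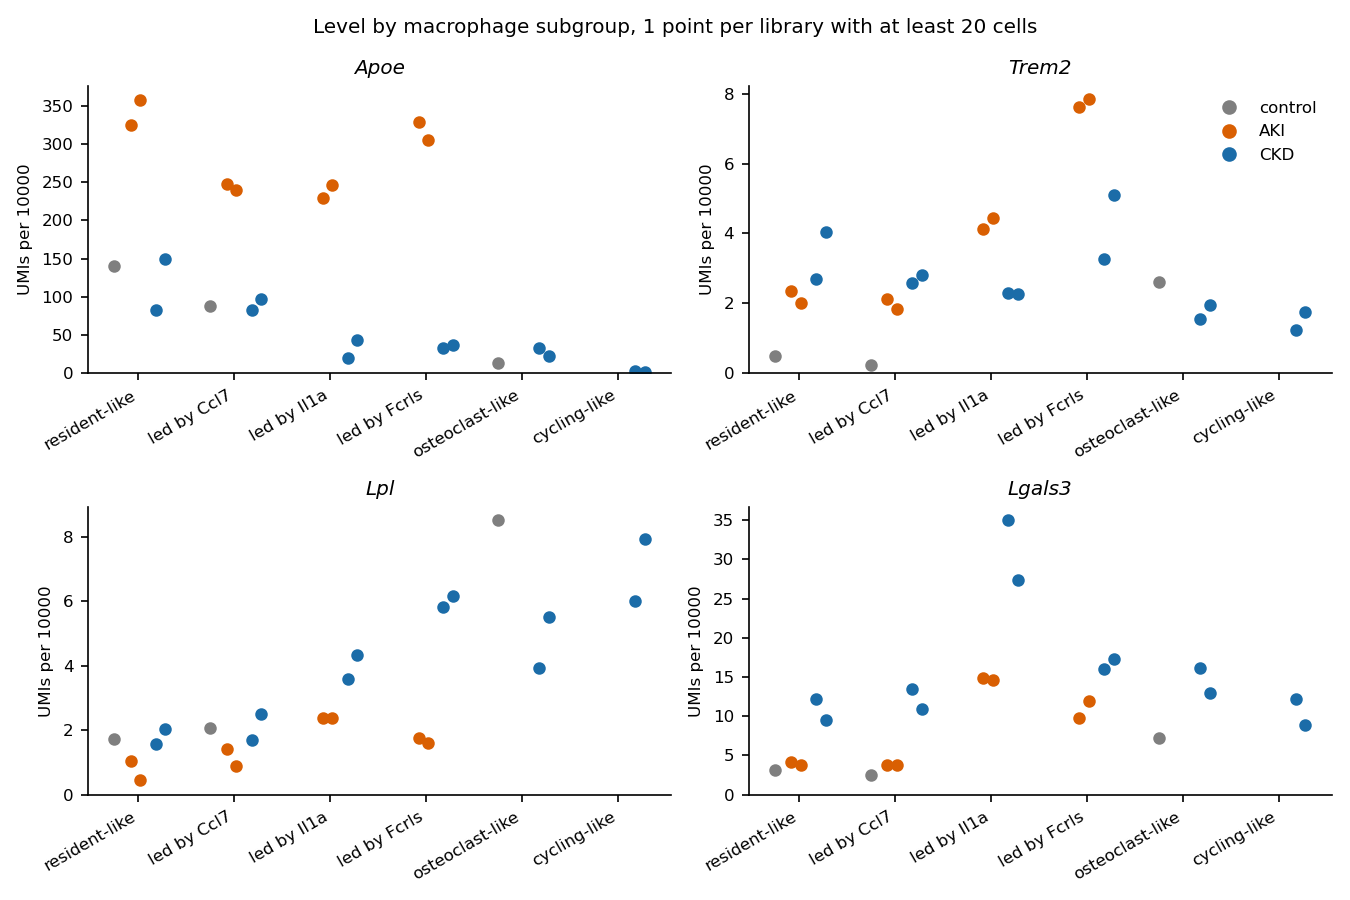
Level of *Apoe*, *Trem2*, *Lpl* and *Lgals3* (y axis, UMIs per 10000) in 6 macrophage subgroups, with 1 point for each library that had at least 20 cells (interferon-like cells and the subclusters led by genes of other cells are not drawn). AKI points stand above CKD points for *Apoe* and below them for *Lpl* and *Lgals3* in the 4 drawn subgroups with AKI points, and *Trem2* is highest in AKI cells led by *Fcrls* (7.63 and 7.85). The control point of osteoclast-like cells rests on 22 cells, of which 21 carried the barcode of a far deeper cell of another library.

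Across 17 cell classes with at least 3 libraries of 20 cells, 5 of the 10 genes had their highest mean level in macrophage-like cells: *Trem2*, *Gpnmb*, *Lpl*, *Apoe* and *Apoc4*. Classes came from clustering of the same cells, so this order is a description, and neighbours in it often overlapped over libraries. *Trem2* averaged 2.31 UMIs per 10000 in macrophage-like cells (0.301 to 3.76 over libraries) and 0.615 in monocyte-like cells (0.436 to 0.751). All further classes were at 0.0931 or less, and monocyte-like cells did not overlap with the next class. *Apoe* averaged 138 in macrophage-like cells (31.9 to 265), 29.3 in monocyte-like cells (18.6 to 47.5) and 18.1 in pericyte/fibroblast-like cells (10.96 to 28.5). Pericyte/fibroblast-like cells did not overlap with the class below them, endothelial (EC-like) cells at 7.97. Of all *Apoe* UMIs in the kept cells of a library, 61.7 to 92.0% lay in macrophage-like cells of AKI and CKD and 68.9% in those of the control, and for *Trem2* the shares were 78.5 to 96.0% and 87.4%.

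*Lpl* was not particular to macrophages. Its means of 2.84 UMIs per 10000 in macrophage-like, 2.35 in pericyte/fibroblast-like and 2.34 in DCT/CNT-like cells (distal convoluted and connecting tubule) overlapped. Macrophage-like cells held 9.19% of the *Lpl* UMIs of the control, where DCT/CNT-like cells stood at 5.89 and thick ascending limb (TAL-like) cells at 4.62, and 61.5 to 90.3% of those of the AKI and CKD libraries. *Apoc2* was highest in monocyte-like cells, at 2.09 UMIs per 10000 in AKI 2 and at 1.51 and 1.63 in CKD 1 and CKD 2, the only libraries with 20 such cells, and did not overlap there with macrophage-like cells (0.448 on average). *Fabp5* was highest in mature dendritic (mature DC-like) cells, at 7.57 and 10.9 in AKI and 26.0 and 29.3 in CKD, with no overlap with the next class, macrophage-like cells.

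*Cd36* was led by type 1 conventional dendritic (cDC1-like) cells, at 1.52 UMIs per 10000 in the control, 0.937 and 0.829 in AKI and 0.307 and 0.650 in CKD, and its levels in the next 3 classes, monocyte-like, EC-like and macrophage-like, overlapped. *Lgals3* was led by principal cells of the collecting duct (CD PC-like), at 11.5 in the control, 23.1 and 25.2 in AKI and 18.9 and 22.2 in CKD, which overlapped with monocyte-like and urothelial-like cells. *Apoc1* was led by TAL-like cells, with a mean of 0.316 (0.139 to 0.610), again overlapping with the classes below. Only 1.89 to 24.7% of the *Apoc1* UMIs of an AKI or CKD library lay in macrophage-like cells, against 55.3 to 90.1% for *Apoc2*, its neighbour in the genome.

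**Figure D4:**
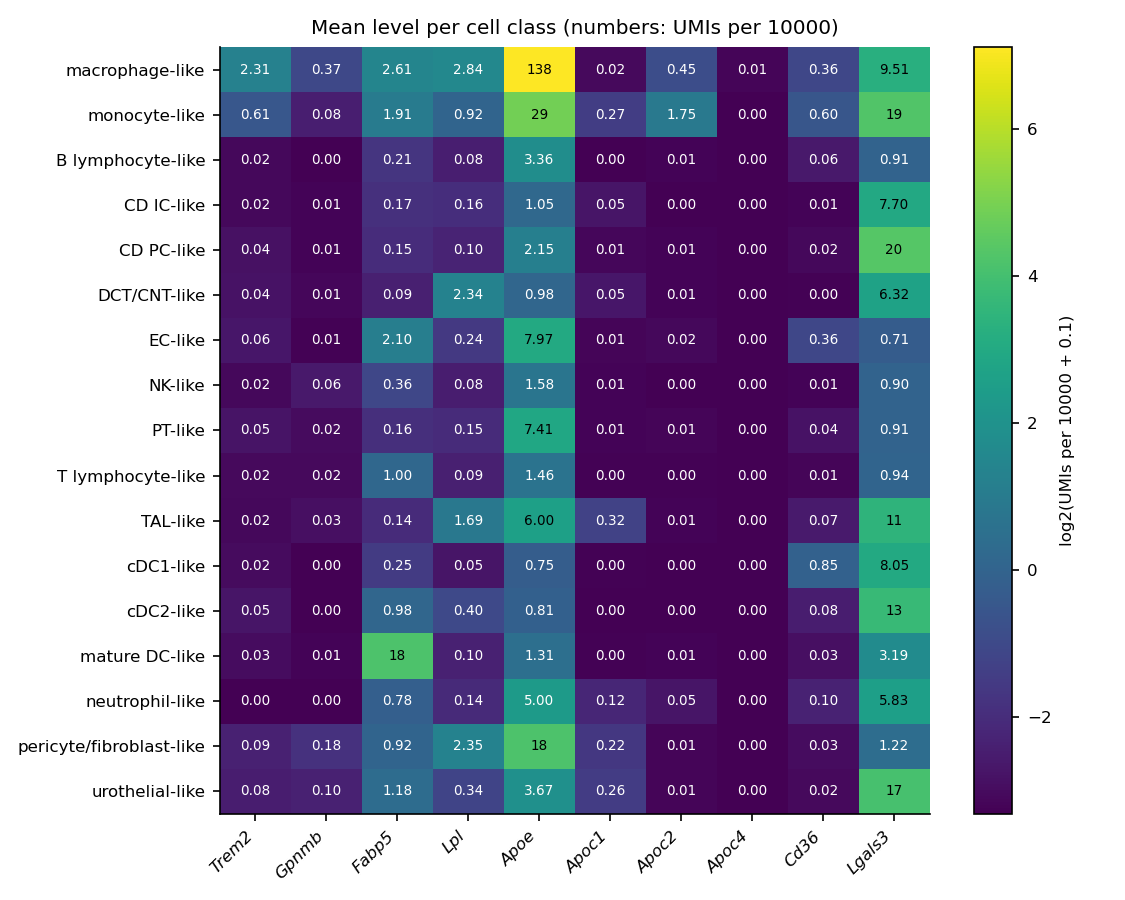
Mean level of the 10 genes (columns) in 17 cell classes (rows), over libraries with at least 20 cells of the class; numbers are UMIs per 10000 and colours show log2(UMIs per 10000 + 0.1). Macrophage-like cells hold the highest value in 5 columns, and *Fabp5* peaks in mature DC-like, *Cd36* in cDC1-like and *Apoc2* in monocyte-like cells.

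Outside macrophages, 7 gene and class pairs passed the same test. *Lpl* was higher in CKD in DCT/CNT-like cells, at 0.801 and 0.768 UMIs per 10000 in AKI and 2.88 and 1.38 in CKD (log2 fold change 1.61, SE 0.321, edgeR adjusted p = 0.0348), where CKD lay between AKI and the control value of 5.89. The same was seen in proximal tubule (PT-like) cells, at 0.271 in the control, 0.0301 and 0.0218 in AKI and 0.267 and 0.143 in CKD (3.09, SE 0.390, 0.0471). In both tubule classes *Lpl* in AKI was thus below the control. Free RNA was not removed, and *Lpl* in T lymphocyte-like cells spanned 0.0281 to 0.277 over libraries. The PT-like levels did not exceed that range, so a change of *Lpl* in the proximal tubule itself is not read from them. *Lgals3* ran the other way in DCT/CNT-like cells, at 1.02 in the control, 10.97 and 11.6 in AKI and 3.28 and 4.72 in CKD (-1.39, SE 0.227, edgeR adjusted p = 0.0127), so the gene fell there while it rose in macrophages.

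*Apoe* was lower in CKD in NK-like cells (2.97 and 3.40 against 0.880 and 0.314 UMIs per 10000, log2 fold change -2.60, edgeR adjusted p = 0.00165) and in cDC2-like cells, the type 2 dendritic cells (0.950 and 1.84 against 0.481 and 0.201, -2.20, 0.0403). *Apoc2* was lower in T lymphocyte-like cells (0.00903 and 0.0125 against 0.00118 and 0.00184, -2.74, edgeR adjusted p = 0.0445) and *Fabp5* slightly higher there (0.961 and 0.968 against 1.52 and 1.26, 0.52, 0.0360). For *Apoe* and *Apoc2* these levels were far below those in macrophage-like AKI cells, and free RNA was not removed from these counts. The backgrounds were 1.21% of genes in DCT/CNT-like, 0.198% in PT-like, 0.112% in NK-like, 0.328% in cDC2-like and 8.30% in T lymphocyte-like cells, and 0.0946% in B lymphocyte-like, 0.0182% in TAL-like, 0.186% in urothelial-like and 0% in the other tested classes, where 0 of the 10 genes passed. Of these calls, *Lpl* in DCT/CNT-like cells was lost without CKD 1 (adjusted p = 0.0562), *Apoe* in NK-like cells without AKI 1 (0.327), *Apoe* in cDC2-like cells without AKI 2 (0.108), and both T lymphocyte calls without either AKI library (0.284 to 0.367, edgeR).

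Whether the change of a gene differed between macrophage-like cells and another class was tested by an interaction with the library as a covariate. Against EC-like cells, where 4.73% of all genes passed, the change of *Apoe* was lower by 2.85 on the log2 scale (SE 0.278, edgeR adjusted p = 0.0189) and that of *Cd36* by 1.71 (SE 0.260, 0.0311). EC-like cells held *Apoe* at 8.15 and 10.5 UMIs per 10000 in AKI and 8.06 and 6.38 in CKD. Their *Cd36* stood at 0.263 and 0.343 in AKI and 0.155 and 0.360 in CKD, so neither moved far while both fell in macrophages. Against PT-like cells (3.97%) the change of *Cd36* differed (-2.54, edgeR adjusted p = 0.0418), and against T lymphocyte-like cells (16.0%) that of *Lgals3* (0.73, 0.0212). *Apoc2* and *Apoc1* also passed against PT-like cells, but both were under the count filter there, with 10, 9, 14 and 3 UMIs of *Apoc2* and 0, 1, 18 and 2 of *Apoc1* in AKI 1, AKI 2, CKD 1 and CKD 2, so no difference in their change is read from it. The interaction of *Apoc2* with T lymphocyte-like cells did not pass (-0.36, edgeR adjusted p = 0.697). *Apoc2* in T lymphocyte-like cells was far below its level in macrophages and may be free RNA, so a like change is not read from that either. The calls of *Apoe*, *Cd36* and *Lgals3* were lost without AKI 1 and without AKI 2 (edgeR adjusted p 0.0729 to 0.464), where the value of *Apoe* against EC-like cells was still -2.61 and -3.06. In those settings 0 genes in all were called against EC-like cells (edgeR, 1362 and 1694 at an unadjusted p under 0.05) and against PT-like cells (1513 and 1471), and 1.05% and 3.74% against T lymphocyte-like cells.

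Genes of the surrounding pathways were read from lists of macrophage and lipid biology, each beside the 16.5% higher and 17.7% lower among all genes in macrophage-like cells. Of 20 other lipid-associated macrophage genes, 5 were higher and 11 lower in CKD (median log2 fold change -0.59). *Capg*, an actin-capping protein, rose most (1.80), and *Lipa*, the lysosomal acid lipase (-1.56), and the protease gene *Ctsb* (-1.48) fell. In the TREM2 signalling list 8 of 13 were lower and 0 higher (median -0.96), led by the membrane protein genes *Ms4a4a* (-2.11), *Ms4a7* (-1.53) and *Ms4a6d* (-1.53) and by *Adam17* (-1.11), a protease that sheds TREM2. *Trem2* itself lay close to that median, at -0.93. The adaptor genes *Tyrobp* (-0.09) and *Hcst* (-0.20) and the kinase gene *Syk* (-0.40) did not pass (edgeR adjusted p 0.0945 to 0.499). *Ms4a7* was also among the markers that named the macrophage class. Within subgroups the counts were smaller. Of 12 tested TREM2 signalling genes, 0 were lower in resident-like and *Ccl7*-led cells (medians -0.25 and -0.22), 2 in *Il1a*-led (-0.29) and 4 in *Fcrls*-led cells (-0.65), and of the 20 other lipid-associated genes 1, 2, 8 and 13 were lower in that order.

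Of 15 genes listed for cholesterol export and the sterol receptor LXR, 8 were lower and 0 higher (median -0.72). Those with the largest falls were the exporter gene *Abca1* (-2.30) and its relative *Abca9* (-2.26). Next came *Cyp27a1* (-2.02), which makes the LXR ligand 27-hydroxycholesterol, and *Mylip* (-1.66), which degrades the LDL receptor. The exporter gene *Abcg1* (-0.13), the LXR gene *Nr1h3* (0.09) and *Srebf1* (-0.01) did not pass. Of 13 tested lipoprotein receptors and scavengers, 8 were lower and 0 higher (median -1.26), among them the scavenger receptor genes *Marco* (-4.66), *Stab1* (-1.93) and *Scarb2* (-1.65) and *Mertk* (-2.76), a receptor for dying cells. Cholesterol synthesis was lower in 14 of 19 and higher in 0 (median -0.99), with *Cyp51* (-1.59), *Sqle* (-1.34) and *Mvd* (-1.19). These counts too differed by subgroup. Of 17 tested synthesis genes 0 were lower in resident-like (median -0.11), 1 in *Ccl7*-led (-0.66), 7 in *Il1a*-led (-1.05) and 14 in *Fcrls*-led cells (-1.75). In the same order 3, 3, 2 and 6 genes of the export and LXR list were lower and 0, 0, 2 and 2 higher. Of the receptors and scavengers 2, 1, 5 and 6 were lower. *Apoe*, by contrast, was called lower in each of the 4 subgroups.

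Fatty acid handling was mixed, with 4 of 20 higher and 5 lower (median -0.27). The carrier gene *Fabp7* (2.99) and the transporter gene *Slc27a1* (1.73) rose, as *Lpl* did, and the lipid-sensing factors *Pparg* (-1.97) and *Ppard* (-1.38) fell. None of 9 tested regulators of lipoprotein lipase passed (median 0.03); the 2 with the highest level were *Sel1l*, of the quality control of LPL in the endoplasmic reticulum (0.03), and *Furin*, a protease that cleaves LPL (0.20). A list of 7 genes held the MiT/TFE factors, which control lysosomal genes such as *Gpnmb*, and the folliculin complex that restrains them. Of its 4 factors *Mitf* was higher (0.86) and *Tfe3* lower (-0.81), and the folliculin complex genes *Flcn* (-0.94) and *Fnip1* (-0.91) were lower, as 4 of the 7 were in all (median -0.68). Among 3 further apolipoproteins with enough counts only *Apoa2* (3.14) passed. Of the stress list 9 of 11 were lower (median -1.24), with *Egr1* (-2.67), *Atf3* (-2.17), *Fosb* (-1.91) and *Jun* (-1.64), and none of the 10 tubule (median 0.51) or 9 T lymphocyte transcripts (0.65) passed.

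**Figure D5:**
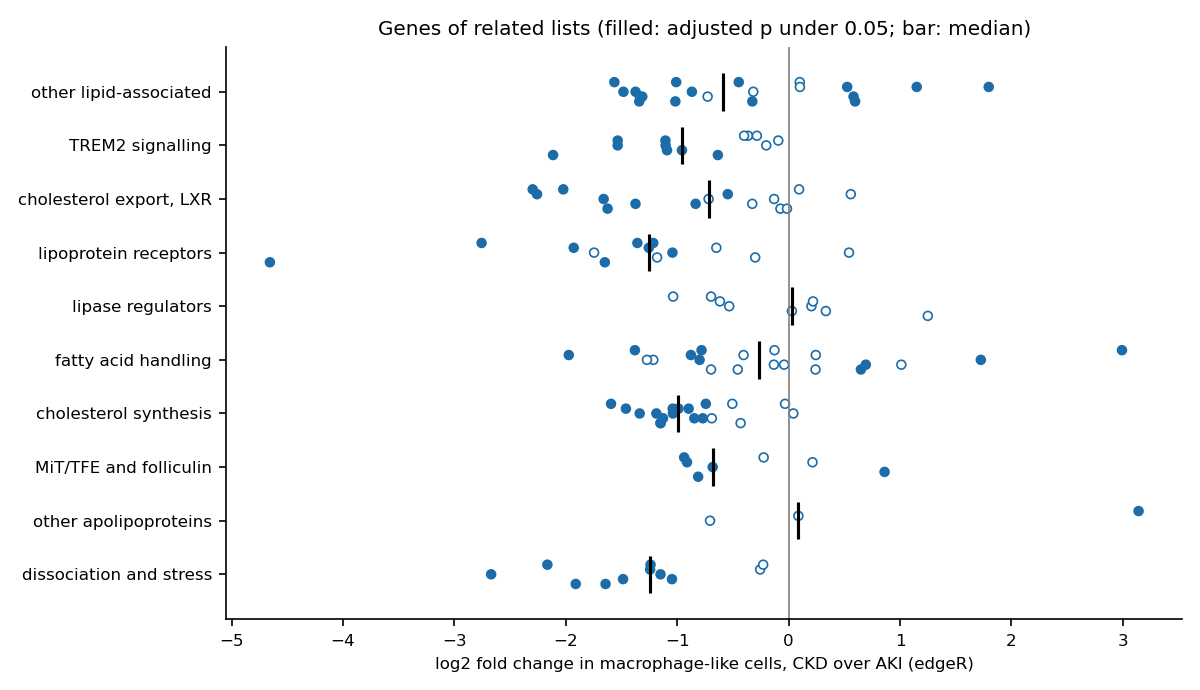
Log2 fold change of CKD over AKI in macrophage-like cells (x axis) for each tested gene of 10 lists (rows); filled points have an edgeR adjusted p under 0.05 and bars are list medians. Genes of TREM2 signalling, cholesterol export, lipoprotein receptors and cholesterol synthesis with a call lie left of 0, and fatty acid handling has calls on both sides.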

How the data were processed

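Whole-kidney single-cell libraries were made with 10x 3′ chemistry. The authors deposited raw UMI counts per gene and cell barcode. The submitters' processing notes name Cell Ranger 7.2.0, STAR and GRCm39, the headers of the AKI and CKD matrices name version 5.0.0, and the gene list of the control names mm10. The study also removed free RNA with CellBender, which was not repeated here, so free RNA remains in every level.

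From these counts, barcodes over 30% mitochondrial UMIs or under 200 genes were dropped, and likely doublets, ranked by their neighbours among simulated doublets, were removed at 0.8% per 1000 cells. Cells were clustered on 3000 variable genes without the 10 genes described (40 principal components, 15 neighbours, Leiden resolution 1.5), and myeloid cells again on 600 genes (20 components, resolution 1). That gene choice was made after subclusters had been seen. Clusters were named from marker lists or by leading genes. Values rest on groups with at least 20 cells in a library. UMIs were summed per library and CKD was tested against AKI with edgeR's quasi-likelihood test (TMM, low-count filter, Benjamini-Hochberg), and with the library as covariate for differences between classes. The single control library entered no test. For shares, cells were thinned to 1500 UMIs. A count of 0 was given the limit of 3 counts, and intervals are at 95% and cover counting error only.

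The genes and lists were chosen with earlier results of these data known, and AGGTCA after the sequences had been read. Named list genes are the called ones with the largest absolute change, up to 4 per list, or the 2 most abundant where none was called. Some genes that this rule names are not reported here. Alternatives were DESeq2 or its size factors, no low-count filter, a replicate block, the control in the fit and leaving out each library. Further ones were a 15% mitochondrial limit, doublets kept, cells of any class with *C1qa* and *C1qb*, no unnamed subclusters and resolution 1. Added after seeing the data were no subclusters led by genes of other cells and equal subgroup weights. Scripts were tested on simulated data. Tools were R 4.3.3 with edgeR 4.0.16, limma 3.58.1 and DESeq2 1.42.0, and Python 3.11.15 with leidenalg 0.10.2, igraph 0.11.9, scikit-learn 1.9.0, pandas 2.3.3, scipy 1.17.1, numpy 2.4.6 and matplotlib 3.10.9.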

Additional observations from a re-analysis of the deposited data

Results flagged for a closer look

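For 6 gene and class pairs, the CKD against AKI change in macrophage-like cells differed from that in another class by an interaction test (edgeR, Benjamini-Hochberg adjusted). Against EC-like cells the change of *Apoe* was -2.85 (SE 0.278, adjusted p = 0.0189) and that of *Cd36* -1.71 (SE 0.260, 0.0311) relative to the other class on the log2 scale. Against PT-like cells the values were -6.30 for *Apoc1* (SE 1.103, edgeR adjusted p = 0.0476), -2.91 for *Apoc2* (SE 0.389, 0.0337) and -2.54 for *Cd36* (SE 0.413, 0.0418). *Apoc1* and *Apoc2* were under the count filter in PT-like cells, with 0 to 18 and 3 to 14 UMIs per AKI or CKD library, so their values rest on counts near 0 there and are no measured difference of change. Against T lymphocyte-like cells *Lgals3* rose more in macrophages, by 0.73 (SE 0.150, edgeR adjusted p = 0.0212). Each call was lost without AKI 1 and without AKI 2, at adjusted p between 0.0729 and 0.464 (edgeR), and each value kept its sign. In those settings 0 genes in all were called against EC-like cells (edgeR, 1362 and 1694 at an unadjusted p under 0.05) and PT-like cells (1513 and 1471).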

How the results depend on the processing

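In macrophage-like cells 4300 genes and 8 of the 10 were called, and leaving out 1 library gave 1973 to 5807 and 5 to 9. Cells with *C1qa* and *C1qb* gave 0 and 0 (edgeR, 2694 genes at an unadjusted p under 0.05). The 20 subgroup calls became 10 to 30 on leaving out a library. The 7 calls in other classes became 11 with DESeq2, 36 without a low-count filter, 16 with the replicate block and 8 to 36 on leaving out a library, and the 6 interactions became 0 to 18. Directions turned for *Gpnmb* in macrophage-like cells with the replicate block (0.11), with doublets kept (0.076), in *C1qa* and *C1qb* cells (0.72), without unnamed subclusters (0.30) and with equal weights (0.13), and leaving out 1 library gave -0.65 (AKI 1) to 0.93 (AKI 2). Leaving out 1 library also turned *Gpnmb* in *Ccl7*-led cells (-1.70 without CKD 2 to 1.37 without AKI 1), *Cd36* in *Il1a*-led cells (-0.81 without CKD 2 to 0.59 without CKD 1), *Fabp5* (-0.10 without CKD 1 to 0.64 without CKD 2) and *Cd36* (-0.44 without CKD 2 to 0.018 without CKD 1) in resident-like cells, and the differences from T lymphocyte-like cells of *Apoe* (-1.27 without CKD 2 to 0.34 without CKD 1) and *Apoc2* (-0.60 without CKD 1 to 0.043 without CKD 2). Differences between classes that did not pass with all libraries were called in opposite directions without CKD 1 and without CKD 2 for *Trem2* against T lymphocyte-like cells (0.82 and -0.998), *Lgals3* against EC-like (1.47 and -2.17) and PT-like cells (1.81 and -0.73), and *Gpnmb* against PT-like cells (2.57 and -1.36). The cause was not tested. Same-numbered libraries share only a number (correlation of deviations 0.151 in macrophage-like cells, -0.131 to 0.267 over groups), and the replicate block gave 4478 genes, 8 of the 10 and 23 subgroup calls. The 5 genes highest in macrophage-like cells stayed 5 under each level alternative. With 2 libraries a group and 1 control, spread is poorly known, and *Apoc1* and *Apoc4* are limited by their few UMIs.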

Other observations

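Within macrophage-like cells thinned to 1500 UMIs, cells with a *Trem2* UMI more often held *Apoc2* in AKI, at 13.3% against 3.61% in AKI 1 and 13.2% against 6.22% in AKI 2. In CKD the shares for *Apoc2* were 1.39% against 1.32% and 3.55% against 1.85%. *Gpnmb* was detected in 3.33% of AKI 1 cells with and 0.760% without *Trem2*, 5.97% and 1.119% in AKI 2, 3.47% and 2.35% in CKD 1, and 6.51% and 3.70% in CKD 2. These are cells of the same libraries and the shares carry no test.

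Over 89 sums of a class in a library, the genes whose levels were most like those of the 10 were sought among 5658 others. *Trem2* ran most like *Msr1* (Pearson r 0.91) and *Clec4a2* (0.88), *Apoe* like *Ms4a7* (0.87) and *C3ar1* (0.86), and *Apoc2* like *Msr1* (0.83) and *Clec4e* (0.79). *Lgals3* ran most like *Tuba1c* (0.78) and *Eif4ebp1* (0.77), *Fabp5* like *Vim* (0.79) and *S100a4* (0.76), *Lpl* like *Adssl1* (0.74) and *Pla2g7* (0.73), and *Cd36* like *BC028528* (0.83) and *Sdc3* (0.73). For *Gpnmb* they were *Tma16* (0.71) and *Mmp14* (0.70), for *Apoc1* *Slc5a1* (0.72) and *Sostdc1* (0.66), and for *Apoc4* *Fcrls* (0.68) and *Cxcl14* (0.61). The points share libraries and depth, so these are descriptions.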
